A study of Mus musculus with 27 samples.

Results

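The secreted Wnt proteins, the surface receptors that bind them and the secreted proteins that block them were followed as 1 gene group of 44 members among the 33924 gene symbols measured. Members were taken by symbol from the gene table: 19 Wnt ligands, 10 Frizzled (Fzd) receptors, the co-receptors Lrp5 and Lrp6, the R-spondins Rspo1, Rspo2 and Rspo3, 9 secreted antagonists (Dkk1 to Dkk4, Sfrp1, Sfrp2, Sfrp4, Sfrp5 and Wif1), and Axin2. The rule used gene symbols and no expression value.

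RNA sequencing was done on 27 libraries in 9 groups of 3. The 12 mouse thyroid tumor cell lines behind 24 of them all carry Braf(V600E), a constantly active form of the kinase Braf. Deletion of Arid1a was added in 3 lines, of Arid2 in 3 and of Smarcb1 in 3, all genes for parts of SWI/SNF, a complex that moves nucleosomes, and the remaining 3 lines carry Braf(V600E) alone. Every line was sequenced after 8 days with 300 nM CKI (CH5126766, which blocks both RAF and MEK) and again with vehicle, a Trappsol solution. The groups are therefore Arid1a KO with CKI and with vehicle, Arid2 KO with CKI and with vehicle, Smarcb1 KO with CKI and with vehicle, Braf with CKI and with vehicle, and wildtype without treatment. Lines were grown from dissected and enzymatically digested tumors. The labels do not state the promoter that drove recombination, the age of the mice, or how many mice each group of lines came from. They mention bovine TSH, the hormone that stimulates the thyroid, in wording from which it cannot be told whether the vehicle arm received it.

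Wnt ligands bind a Frizzled receptor together with Lrp5 or Lrp6, which keeps beta-catenin from being degraded so that it can switch on target genes with TCF/LEF factors. R-spondins strengthen that signal by sparing Frizzled receptors from the ubiquitin ligases Rnf43 and Znrf3. Sfrp proteins and Wif1 bind Wnts outside the cell, most Dkk proteins block the LRP co-receptors, and Axin2 is both a target of the pathway and a brake on it. Mutations of the gene for beta-catenin are known from anaplastic thyroid cancer.

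Promoter sequence was available from RefSeq (build GRCm38.p6) for 28 of the 44 members, in 31 windows of 250 bases before the annotated start. Windows were searched on both strands for a TCF/LEF motif (CTTTGAA or CTTTGAT or CTTTGTA or CTTTGTT) and for the AP-1 motif TGANTCA, the site of Fos and Jun factors, which act downstream of RAF and MEK. A TCF/LEF match that ends in TGAA or TGAT can share those letters with an AP-1 match. A TCF/LEF match was found in 4 of the 31 member windows, a share of 12.9%, against 14.8% of all 32851 windows in the table. An AP-1 match was found in 1 member window, a share of 3.23%, against 6.75% of all windows. The members with a TCF/LEF match were Dkk1, Fzd7, Wnt11 and Wnt5b, and the AP-1 match lay before another start of Wnt5b. The 3 windows printed here belong to the feedback target Axin2 (chr11:108920099-108920348, plus strand), to the antagonist Wif1 (chr10:121033754-121034003, plus strand) and to the receptor Fzd7 (chr1:59481897-59482146, plus strand). Axin2 and Wif1 are shown because they moved in opposite directions in the Smarcb1 KO lines, and Fzd7 because it holds a match. Capitals mark a match to either motif.
Axin2: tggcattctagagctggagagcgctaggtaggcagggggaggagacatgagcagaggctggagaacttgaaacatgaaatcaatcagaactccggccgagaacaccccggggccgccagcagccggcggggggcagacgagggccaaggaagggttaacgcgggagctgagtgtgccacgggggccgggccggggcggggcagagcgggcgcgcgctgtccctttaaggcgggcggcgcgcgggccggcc
Wif1: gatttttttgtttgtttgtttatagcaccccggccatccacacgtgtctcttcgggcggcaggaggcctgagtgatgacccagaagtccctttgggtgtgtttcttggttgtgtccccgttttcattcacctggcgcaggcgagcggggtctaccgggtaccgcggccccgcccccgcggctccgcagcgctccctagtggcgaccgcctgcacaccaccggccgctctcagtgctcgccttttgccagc
Fzd7: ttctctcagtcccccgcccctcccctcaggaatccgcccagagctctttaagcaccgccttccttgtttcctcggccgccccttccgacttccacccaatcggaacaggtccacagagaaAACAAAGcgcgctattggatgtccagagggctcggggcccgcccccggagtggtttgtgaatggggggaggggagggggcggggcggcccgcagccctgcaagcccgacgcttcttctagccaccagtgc
The Fzd7 match, AACAAAG on the printed strand, begins 130 bases before the start. Neither motif occurs in the printed windows of Axin2 and Wif1, which says only that those letters are not in these 250 bases.

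Levels are given as CPM, library counts scaled to a common total after trimmed mean of M values (TMM) normalization. A CPM does not correct for gene length, so levels are compared between libraries and never between genes. Changes are log2 ± standard error (SE), and adjusted p denotes edgeR's quasi-likelihood F test with Benjamini-Hochberg adjustment over all genes tested. A gene was called at an adjusted p under 0.05. Shares of all genes tested refer to calls at that threshold in the same edgeR fit. Counts at an unadjusted p, by DESeq2 or with lines left out have no such share beside them. Means are followed by SD over n = 3 libraries. Values of single libraries are given in the order of the lines B47275, B48051 and B52482 for Braf, BA45198, BA47473 and BA49112 for Arid1a KO, AB51189, AB52980 and AB55694 for Arid2 KO, BS53736, BS53958 and BS53965 for Smarcb1 KO, and by increasing library label for wildtype. Where a group held only 1 to 3 counts in all, a ratio is given with its exact (Clopper-Pearson) 95% interval, which covers counting error only. That ratio pools the counts of each group over its summed scaled library sizes. It can therefore differ from the ratio of the printed CPM values where libraries differ in depth, as in Smarcb1 KO lines under CKI. Nothing in the labels says that 2 lines came from different mice, so p-values measure the spread between the sequenced lines.

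Library totals ran from 18417255 to 27257703 counts, apart from 11684983 in BS53958 and 2884130 in BS53965, both Smarcb1 KO lines with CKI. In the shallowest of these, 3 counts correspond to 0.891 CPM. Smarcb1 RNA was nearly lost from Smarcb1 KO lines (log2 change against Braf in vehicle of -7.34 ± 0.86, adjusted p = 7.72e-05). Arid1a RNA was lower in Arid1a KO lines (-0.71 ± 0.17, adjusted p = 0.0325), a call lost without B47275, B48051, BA47473 or BA49112 (adjusted p of 0.093 to 0.186). Arid2 RNA was not called in Arid2 KO lines (-0.05 ± 0.24, adjusted p = 0.968), so the counts give no check of that label. The thyroid follicular markers (7 genes, among them Tg and Pax8) summed to 33.1 to 983 CPM in the 24 tumor line libraries. In the wildtype libraries, whose source the labels also give as a thyroid tumor cell line, they summed to 228000 to 346100 CPM. Among the tumor lines, skeletal muscle markers stood out in AB52980 (up to 993 CPM in sum) and endothelial markers in BS53965 (up to 666 CPM).

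Of the 44 members, 32 had enough counts to be tested across the tumor lines and 35 once the wildtype libraries were included. The 12 members not tested in the tumor lines were Dkk1, Dkk4, Rspo1, Sfrp5, Wnt1, Wnt16, Wnt2, Wnt3, Wnt3a, Wnt8a, Wnt8b and Wnt9b. In tumor lines they never held more than 38 counts in a library. In all, 27 of the 44 members were called in at least 1 of the 15 comparisons made.

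**Figure D1:**
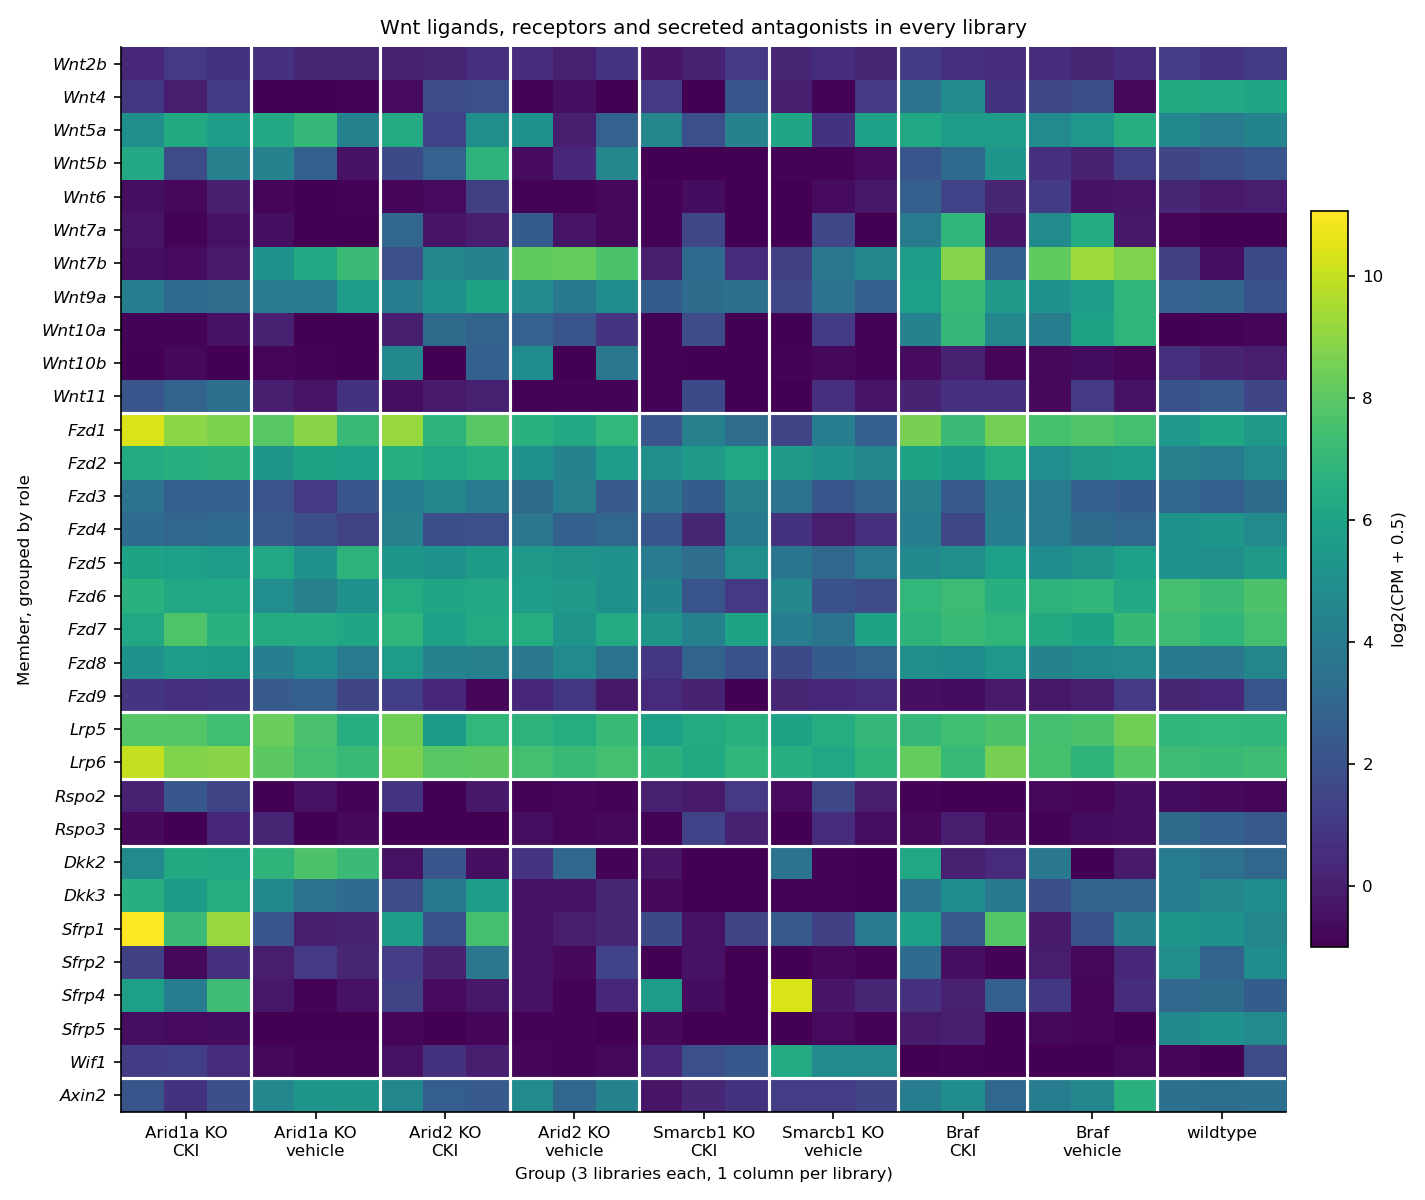
Level of the 32 members whose mean reached 1 CPM in at least 1 group, as log2(CPM + 0.5). Each column is a library, in blocks of 3 per group, and white lines separate the groups and the roles. Colors are to be compared along a row. Wnt7b is bright in Arid2 KO and Braf lines in vehicle, Wif1 in Smarcb1 KO lines in vehicle, and Sfrp5 and Wnt4 in wildtype.

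Braf lines in vehicle had more RNA of the ligands Wnt7b, Wnt7a, Wnt10a and Wnt9a than wildtype, and less of Wnt4. The R-spondins Rspo1 and Rspo3 and the antagonists Sfrp2, Sfrp5, Dkk3 and Wif1 were lower, and the receptors Fzd1 and Fzd2 and the feedback target Axin2 were higher. Of the roles, 4 of 12 tested ligands and 2 of 10 Frizzled receptors were higher, and 2 of 3 R-spondins and 4 of 7 tested antagonists were lower. In all, 7 of 35 tested members were called higher and 7 lower, where 46.5% of all 16821 genes tested were called, a larger share than among the members. The median log2 change of the members was -0.80, against 0.02 over all genes tested. Markers of other cell types were also higher in wildtype. Fibroblast markers (8 genes) summed to 30.8, 5.15 and 243 CPM in Braf vehicle, with 4, 2 and 6 genes over 1 CPM, and to 3768, 3646 and 1879.9 CPM in wildtype, with all 8 over 1 CPM. The 5 leukocyte markers summed to 2.72 to 4.33 CPM in Braf vehicle, against 72.7 to 114 CPM in wildtype, and the 5 endothelial markers to 0.412 to 3.15 CPM in Braf vehicle, against 448 to 667 CPM in wildtype. The 3 adipocyte markers summed to at most 0.155 CPM in Braf vehicle, against 505 to 2113 CPM in wildtype, and the 3 skeletal muscle markers to at most 0.737 CPM in Braf vehicle, against 975 to 2154 CPM in wildtype. The part of those cells in the changes was not tested. In bulk RNA, fewer cells of a type and less RNA per cell cannot be told apart. The wildtype libraries were also untreated, while the Braf lines had vehicle. Genotype, treatment and the mix of cells therefore cannot be told apart in this comparison.

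Among the ligands, Wnt7b, which acts through beta-catenin in lung and kidney development, had 280.1, 618 and 423 CPM in Braf vehicle, against 1.97, 0.201 and 2.63 CPM in wildtype. The groups did not overlap, and the lowest Braf library stood far above the highest wildtype one. Wnt7b was higher by a log2 change of 8.10 ± 1.54, adjusted p = 0.000322. Wnt10a, a ligand of tooth and skin appendage development, had 16.4, 62.9 and 118 CPM in Braf vehicle, against 0, 0.0502 and 0.0537 CPM in wildtype (1843-fold higher with a counting interval of 509.9 to 15220.0, adjusted p = 0.000751). The wildtype group held 2 counts of Wnt10a in all. Wnt7a, a close relative of Wnt7b, had 26.7, 84.6 and 0.361 CPM in Braf vehicle, against 0.0518, 0 and 0 CPM in wildtype, from 1 count in all (2132-fold higher with a counting interval of 382 to 84240.0, adjusted p = 0.00906). The third Braf line, B52482, stayed close to wildtype for Wnt7a while it was the highest for Wnt10a. Wnt9a, known from joint formation, had 34.0, 51.9 and 117 CPM in Braf vehicle, against 6.42, 7.12 and 3.55 CPM in wildtype, a log2 change of 3.57 ± 0.70, adjusted p = 0.000416. Wnt4, a ligand of kidney and ovary development, ran the other way, at 2.49, 3.19 and 0.103 CPM in Braf vehicle, against 80.3, 77.4 and 69.6 CPM in wildtype, a log2 change of -5.29 ± 1.49, adjusted p = 0.00688. Wnt5a, which signals largely without beta-catenin, averaged 53.1 ± 34.0 CPM in Braf vehicle, against 20.4 ± 4.62 CPM in wildtype and was not called (1.38 ± 1.22, adjusted p = 0.372).

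Among the secreted regulators, Sfrp5 had 0.0922, 0.0515 and 0 CPM in Braf vehicle, against 24.2, 34.0 and 25.1 CPM in wildtype (562-fold lower with a counting interval of 192 to 2727, adjusted p = 4.61e-05). Sfrp2 averaged 0.463 ± 0.361 CPM in Braf vehicle, against 21.9 ± 13.2 CPM in wildtype (-5.55 ± 1.74, adjusted p = 0.0136). Both Sfrp genes were lower in every Braf library than in any wildtype library. Dkk3, a divergent Dkk family member, averaged 5.63 ± 2.13 CPM in Braf vehicle, against 23.2 ± 5.67 CPM in wildtype (-2.04 ± 0.73, adjusted p = 0.0283). Rspo3 averaged 0.136 ± 0.0818 CPM in Braf vehicle, against 6.51 ± 1.97 CPM in wildtype (-5.54 ± 1.60, adjusted p = 0.00921). No Rspo1 count was found in Braf vehicle, against 0.932, 0.853 and 1.02 CPM in wildtype. With 3 counts allowed over the Braf vehicle group, that is at least 18.9-fold lower (adjusted p = 0.000172). Wif1 had 0, 0 and 0.103 CPM in Braf vehicle, against 0.0518, 0 and 2.96 CPM in wildtype. The call of lower for Wif1 (adjusted p = 0.0143) rested on the third wildtype library, and without that library the log2 change was 0.28. Without the third wildtype library, B47275 or B48051, the adjusted p of Wif1 was 0.0595 to 0.901.

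Of the receptors, Fzd1 averaged 194 ± 25.1 CPM in Braf vehicle, against 52.5 ± 14.8 CPM in wildtype (1.89 ± 0.71, adjusted p = 0.0344), and Fzd2 averaged 41.2 ± 9.88 CPM in Braf vehicle, against 19.8 ± 4.96 CPM in wildtype (1.06 ± 0.34, adjusted p = 0.0153). The other 8 Frizzled genes and both LRP co-receptors were not called. Axin2, the feedback target, had 16.8, 23.7 and 99.6 CPM in Braf vehicle, against 9.95, 9.73 and 10.2 CPM in wildtype. The groups did not overlap, but line B52482 stood well above the other Braf lines. The log2 change of Axin2 was 2.23 ± 0.71, adjusted p = 0.0148. Several of these calls depended on a single wildtype library or Braf line. A Braf line was left out of the fit with both its vehicle and its CKI library. Fzd1 lost its call without any 1 of the wildtype libraries or Braf lines (adjusted p of 0.0558 to 0.114). Fzd2 lost its call without the first wildtype library, the second wildtype library or B52482 (adjusted p of 0.0508 to 0.0861), and Axin2 without the first wildtype library, the second wildtype library or B52482 (adjusted p of 0.0501 to 0.202). Dkk3 lost its call without the third wildtype library, B47275 or B52482 (adjusted p of 0.054 to 0.107).

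**Figure D2:**
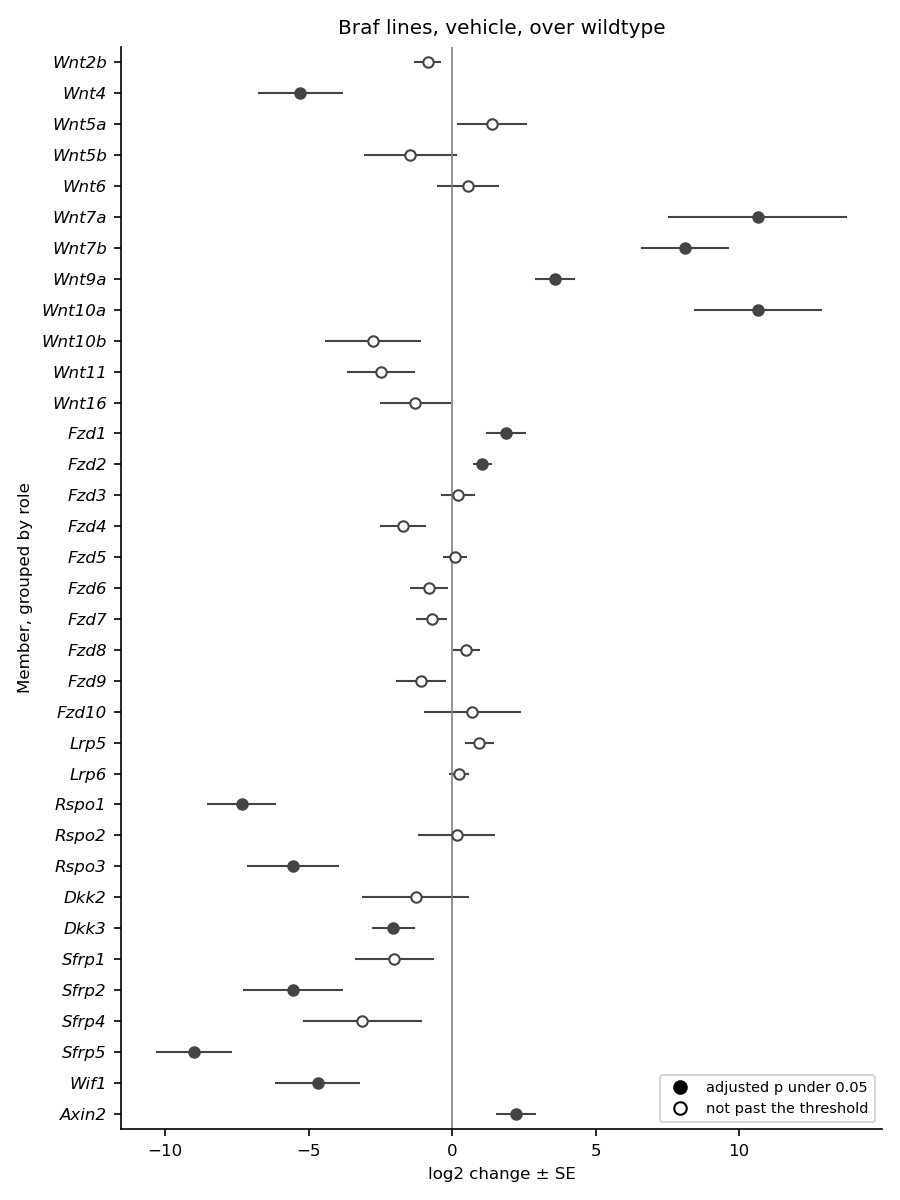
Log2 change ± SE of the 35 tested members in Braf lines with vehicle over wildtype (x axis), listed by role from ligands at the top to Axin2 at the bottom. Filled points passed an adjusted p under 0.05: 7 members lie to the right of 0 and 7 to the left, with Wnt7b at 8.10 and Rspo3 at -5.54. The point of Rspo1 is a fitted value for a group without counts.

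Loss of Smarcb1 was accompanied by lower RNA of several ligands and receptors, of Axin2 and of the antagonist Dkk3. RNA of another antagonist, Wif1, was higher. In vehicle, Smarcb1 KO lines had 2 of 32 tested members higher and 11 lower than Braf lines, where 18.1% of all 15634 genes tested were called. The median log2 change of the members was -1.57, against -0.02 over all genes tested. With CKI in both arms, 2 members were higher and 13 lower in Smarcb1 KO lines, where 23.1% of all genes tested were called, and the medians were -2.50 for the members and -0.05 for all genes tested. By role, 3 of 11 tested ligands, 6 of 10 Frizzled receptors and 1 of 6 tested antagonists were lower in vehicle. Under CKI, 5 ligands, 4 Frizzled receptors, 1 co-receptor and 2 antagonists were lower. The vehicle and CKI comparisons use the same lines and are not independent of each other. The epithelial markers (10 genes, among them Epcam and Cdh1) summed to 19.0, 258 and 0.474 CPM in Smarcb1 KO vehicle, with 3, 9 and 0 genes over 1 CPM, and to 5552, 7488 and 1352 CPM in Braf vehicle, with 9, 10 and 4 genes over 1 CPM. Their part in the changes of the members was not tested. Without the Smarcb1 KO lines BS53958 and BS53965, whose CKI libraries were shallow, 7 members were called in vehicle and 6 under CKI. That leaves 1 Smarcb1 KO line, BS53736, which is then assumed to vary like the other groups.

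Wif1, which binds Wnt proteins outside the cell, had 82.2, 26.1 and 25.1 CPM in Smarcb1 KO vehicle and 0, 0 and 0.103 CPM in Braf vehicle. All 3 Smarcb1 KO lines were above every other library of the series for Wif1. Wif1 was 1330.0-fold higher with a counting interval of 368 to 10990.0, adjusted p = 6.75e-05, the smallest adjusted p of any member in this comparison. Under CKI, Wif1 had 0.82, 3.29 and 4.46 CPM in Smarcb1 KO lines and 0, 0.0416 and 0 CPM in Braf lines (144-fold higher with a counting interval of 25.0 to 5751, adjusted p = 0.000615). The groups did not overlap in either arm, and the call was kept when any 1 line was left out. Sfrp4, a relative of Sfrp1, had 1316, 0.34 and 0.689 CPM in Smarcb1 KO vehicle and 1.43, 0.0515 and 0.98 CPM in Braf vehicle. Line BS53736 alone was high. The call of higher for Sfrp4 (9.02 ± 2.75, adjusted p = 0.0309) was lost without B47275, B48051, B52482 or BS53736 (adjusted p of 0.0833 to 0.794), and without BS53736 the log2 change was -0.65. Dkk3 had 0.0475, 0.0485 and 0 CPM in Smarcb1 KO vehicle and 3.18, 6.75 and 6.96 CPM in Braf vehicle (179.7-fold lower with a counting interval of 49.4 to 1490.0, adjusted p = 0.000642). Under CKI, Dkk3 had 0.123, 0 and 0 CPM in Smarcb1 KO lines and 11.6, 28.9 and 14.0 CPM in Braf lines (236-fold lower with a counting interval of 80.7 to 1148, adjusted p = 0.000337). Over all 3 Smarcb1 KO libraries, Dkk3 held 3 counts under CKI and 2 in vehicle.

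Axin2 had 1.80, 1.75 and 2.28 CPM in Smarcb1 KO vehicle and 16.8, 23.7 and 99.6 CPM in Braf vehicle. Every Smarcb1 KO library lay below every Braf library for Axin2, and also below the wildtype libraries. The log2 change of Axin2 was -4.59 ± 0.83, adjusted p = 0.00181 in vehicle. Under CKI, Axin2 had 0.287, 0.741 and 1.19 CPM in Smarcb1 KO lines and 16.9, 28.9 and 7.71 CPM in Braf lines (-4.79 ± 0.90, adjusted p = 0.00196). Both calls of Axin2 were kept when any 1 line was left out.

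Of the 10 Frizzled receptors, 6 were lower in Smarcb1 KO vehicle. Fzd1 had 2.23, 17.6 and 5.60 CPM in Smarcb1 KO vehicle and 187, 222 and 174 CPM in Braf vehicle, with no overlap (-4.51 ± 0.83, adjusted p = 0.00201). Under CKI, Fzd1 had 4.02, 18.4 and 9.51 CPM in Smarcb1 KO lines and 378, 146 and 368 CPM in Braf lines (-4.81 ± 0.85, adjusted p = 0.00136). Fzd6, a receptor of planar cell polarity and hair patterning, had 23.4, 3.59 and 2.93 CPM in Smarcb1 KO vehicle and 111, 120.2 and 76.4 CPM in Braf vehicle (-3.38 ± 0.76, adjusted p = 0.00646). Lines BS53958 and BS53965 had less Fzd6 than BS53736, which was itself below every Braf line. Fzd8 averaged 4.91 ± 2.08 CPM in Smarcb1 KO vehicle and 23.9 ± 2.80 CPM in Braf vehicle (-2.29 ± 0.51, adjusted p = 0.0062). Fzd5 averaged 11.6 ± 3.99 CPM in Smarcb1 KO vehicle and 40.2 ± 13.3 CPM in Braf vehicle (-1.80 ± 0.45, adjusted p = 0.0116). Fzd4, a receptor of retinal vessel growth, averaged 0.9 ± 0.405 CPM in Smarcb1 KO vehicle and 10.6 ± 4.33 CPM in Braf vehicle (-3.56 ± 0.93, adjusted p = 0.0147), a call lost without line B47275 (adjusted p = 0.0523). Fzd7, whose promoter holds the printed TCF/LEF match, was called by a narrow margin in vehicle (-1.65 ± 0.56, adjusted p = 0.0472) and under CKI (-1.64 ± 0.56, adjusted p = 0.0424). Its call was lost in vehicle without B47275, B48051, B52482, BS53736 or BS53958 (adjusted p of 0.0567 to 0.175) and under CKI without B47275, B48051, B52482, BS53736 or BS53958 (adjusted p of 0.0684 to 0.114). Fzd6 and Fzd8 were also called under CKI, with log2 changes of -3.77 ± 0.77, adjusted p = 0.00362 for Fzd6 and -3.13 ± 0.53, adjusted p = 0.00114 for Fzd8. Fzd4 and Fzd5 did not pass under CKI, at -0.98 ± 0.85, adjusted p = 0.422 for Fzd4 and -1.01 ± 0.44, adjusted p = 0.104 for Fzd5.

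Fzd2 and Fzd3 were not called in Smarcb1 KO lines. Fzd2 averaged 34.1 ± 11.2 CPM in Smarcb1 KO vehicle and 41.2 ± 9.88 CPM in Braf vehicle (-0.28 ± 0.34, adjusted p = 0.606), and Fzd3 averaged 7.59 ± 3.74 CPM in Smarcb1 KO vehicle and 8.70 ± 5.19 CPM in Braf vehicle (-0.21 ± 0.60, adjusted p = 0.84). The difference between these receptors and the others was not tested. The co-receptor Lrp6 averaged 103 ± 22.7 CPM in Smarcb1 KO lines and 271 ± 120.3 CPM in Braf lines under CKI (-1.42 ± 0.39, adjusted p = 0.0161), a call lost without B47275, B52482 or BS53958 (adjusted p of 0.0524 to 0.0661). In vehicle the Lrp6 change was -0.91 ± 0.38, adjusted p = 0.102. Lrp5, the other co-receptor, averaged 93.5 ± 34.9 CPM in Smarcb1 KO vehicle and 239.7 ± 90.04 CPM in Braf vehicle (-1.37 ± 0.54, adjusted p = 0.0845). It was called in none of the 15 comparisons by edgeR.

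Among the ligands, Wnt7b had 1.95, 13.7 and 22.1 CPM in Smarcb1 KO vehicle and 280.1, 618 and 423 CPM in Braf vehicle (-5.13 ± 1.33, adjusted p = 0.0144). The highest Smarcb1 KO library lay below the lowest Braf library. Wnt9a had 2.42, 11.4 and 5.55 CPM in Smarcb1 KO vehicle and 34.0, 51.9 and 117 CPM in Braf vehicle (-3.39 ± 0.72, adjusted p = 0.00479), and under CKI the log2 change was -3.29 ± 0.72, adjusted p = 0.00521. Wnt10a had 0, 1.70 and 0.0431 CPM in Smarcb1 KO vehicle and 16.4, 62.9 and 118 CPM in Braf vehicle (-6.81 ± 1.85, adjusted p = 0.0182). Line BS53958 was the highest of the 3 for Wnt10a. It had 9 of 10 epithelial markers over 1 CPM, though their sum of 258 CPM lay below that of every Braf vehicle library. Among Braf vehicle libraries, B52482 had the highest Wnt10a with 4 of those markers over 1 CPM, and B47275 the lowest with 9. A link of Wnt10a to these markers was not tested. The Wnt10a call was lost without BS53736 or BS53965 (adjusted p of 0.0504 to 0.0666), and the one under CKI (-5.74 ± 1.78, adjusted p = 0.0284) without B48051, BS53736 or BS53965 (adjusted p of 0.0629 to 0.0997). Under CKI, Wnt7b had 0.492, 8.23 and 0.891 CPM in Smarcb1 KO lines and 51.6, 449 and 6.26 CPM in Braf lines. These groups overlapped, and the call (-5.64 ± 1.38, adjusted p = 0.00967) was lost without line B48051 (adjusted p = 0.0669).

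Further members differed between Smarcb1 KO and Braf lines under CKI alone, although the difference between the arms was not itself past the threshold for any of them. Wnt5b, which like Wnt5a signals largely without beta-catenin, held no count in any Smarcb1 KO library under CKI and 3.96, 8.08 and 40.2 CPM in Braf lines. With 3 counts allowed over the Smarcb1 KO group, Wnt5b was at least 232-fold lower (adjusted p = 0.0237). Sfrp1 had 2.66, 0.247 and 2.38 CPM in Smarcb1 KO lines and 58.8, 4.79 and 234 CPM in Braf lines (-5.87 ± 1.78, adjusted p = 0.0259). Wnt6 averaged 0.0686 ± 0.0857 CPM in Smarcb1 KO lines and 2.94 ± 2.64 CPM in Braf lines (41.2-fold lower with a counting interval of 13.9 to 201, adjusted p = 0.0211). Rspo2 averaged 0.81 ± 0.588 CPM in Smarcb1 KO lines and 0.0118 ± 0.0204 CPM in Braf lines (44.1-fold higher with a counting interval of 7.16 to 1815, adjusted p = 0.0266), low levels in both. Each of these 4 calls rested on few lines. Wnt5b lost its call without B52482, BS53736, BS53958 or BS53965 (adjusted p of 0.0589 to 0.0823) and Sfrp1 without B52482, BS53736, BS53958 or BS53965 (adjusted p of 0.0634 to 0.0908). Wnt6 lost its call without B47275, BS53736 or BS53965 (adjusted p of 0.0582 to 0.0655) and Rspo2 without B47275, B48051, B52482 or BS53965 (adjusted p of 0.062 to 0.0804).

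**Figure D3:**
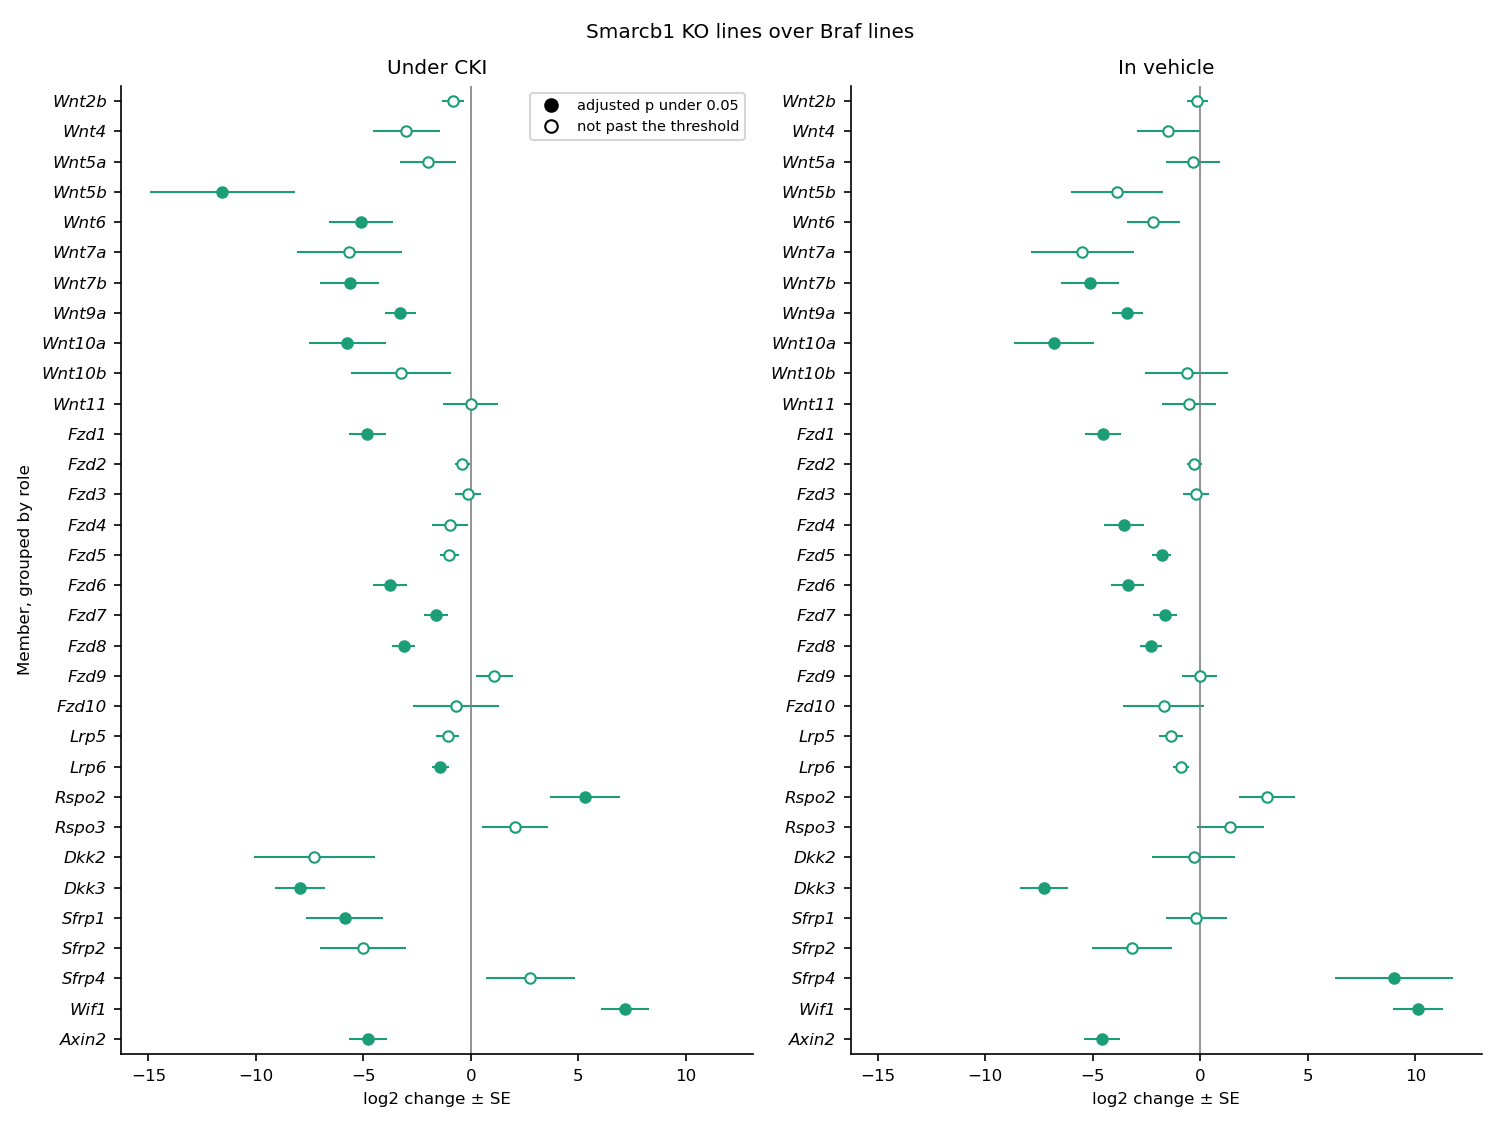
Log2 change ± SE (x axes) of the 32 tested members in Smarcb1 KO lines over Braf lines, under CKI on the left and in vehicle on the right, listed by role. Filled points passed an adjusted p under 0.05: 15 under CKI and 13 in vehicle, with Axin2 at -4.79 under CKI and -4.59 in vehicle. Wif1 lies far to the right in both panels, and the point of Wnt5b under CKI is a fitted value for a group without counts.

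Few members passed in Arid1a KO lines and none in Arid2 KO lines. All 3 KO genotypes were compared with the same Braf libraries, so their values stand side by side and do not support one another. In Arid1a KO vehicle, Wnt10a was the 1 member called of 32, where 3.63% of all genes tested were called. Wnt10a had 0.568, 0 and 0 CPM in Arid1a KO vehicle and 16.4, 62.9 and 118 CPM in Braf vehicle (-8.46 ± 2.02, adjusted p = 0.0313). The groups did not overlap, and the call was lost without B47275, B48051, BA45198, BA47473 or BA49112 (adjusted p of 0.0619 to 0.156). The member median was -0.24 and that of all genes tested -0.01. Under CKI, 2 of 32 members were called in Arid1a KO lines, where 0.736% of all genes tested were called, with a member median of 0.21 against -0.02 for all genes tested. Wnt7b had 0.189, 0.139 and 0.426 CPM in Arid1a KO lines and 51.6, 449 and 6.26 CPM in Braf lines under CKI (-9.34 ± 1.66, adjusted p = 0.0176). Wif1 had 1.70, 1.85 and 0.979 CPM in Arid1a KO lines and 0, 0.0416 and 0 CPM in Braf lines under CKI (115-fold higher with a counting interval of 20.3 to 4601, adjusted p = 0.0169). Wnt7b lost its call without B48051, BA45198, BA47473 or BA49112 (adjusted p of 0.0775 to 0.117) and Wif1 without B47275, B48051, BA47473 or BA49112 (adjusted p of 0.0539 to 0.0753). Fibroblast markers summed to 3456, 1959 and 901 CPM in Arid1a KO vehicle, with 6, 7 and 6 of 8 genes over 1 CPM, and to 30.8, 5.15 and 243 CPM in Braf vehicle. Epithelial markers summed to 337, 330.2 and 317 CPM in Arid1a KO vehicle, with 4, 3 and 3 of 10 genes over 1 CPM. Their part was not tested.

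Dkk2, a Dkk protein that binds Lrp6, had 113, 205 and 146 CPM in Arid1a KO vehicle and 13.7, 0 and 0.413 CPM in Braf vehicle. The 3 Arid1a KO vehicle libraries were the highest of the series for Dkk2, yet it was not called (5.03 ± 2.26, adjusted p = 0.226). Without Braf line B52482, 3 members were called in vehicle and 6 under CKI between Arid1a KO and Braf lines. Without any 1 of the other 5 lines, 0 were called in vehicle. Under CKI the count was 1 without B47275 or BA45198 and 0 without B48051, BA47473 or BA49112. These counts alone do not tell whether the members or all genes in the fit moved.

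In Arid2 KO lines no member was called by edgeR in vehicle, where 0.0512% of all genes tested were called, or under CKI, where the share was 0.064%. At an unadjusted p under 0.05 there were 9 members in vehicle and 6 under CKI, and DESeq2 called 2 members in each arm. Those counts cannot be set against the shares above, which hold for edgeR's adjusted p. Without Arid2 KO line AB52980, 1 member was called in vehicle. Member medians were -0.84 in vehicle and -0.52 under CKI, against -0.01 in vehicle and 0.01 under CKI over all genes tested. Epithelial markers summed to 923, 84.8 and 288 CPM in Arid2 KO vehicle, with 5, 4 and 5 of 10 genes over 1 CPM, and to 5552, 7488 and 1352 CPM in Braf vehicle, and their median log2 change was -6.34. Their part was not tested. Wnt10a had 6.34, 3.96 and 1.28 CPM in Arid2 KO vehicle and 16.4, 62.9 and 118 CPM in Braf vehicle, without overlap (-4.08 ± 1.60, adjusted p = 0.288). Wnt7b averaged 257 ± 50.8 CPM in Arid2 KO vehicle and 440.3 ± 169.8 CPM in Braf vehicle (-0.77 ± 1.12, adjusted p = 0.858). Wnt10b, a ligand that restrains fat cell formation, had 28.6, 0 and 13.6 CPM in Arid2 KO vehicle, high in AB51189 and AB55694 and with no count in AB52980. It had 0.0922, 0.155 and 0.0516 CPM in Braf vehicle, and the groups overlapped (7.07 ± 2.02, adjusted p = 0.141).

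**Figure D4:**
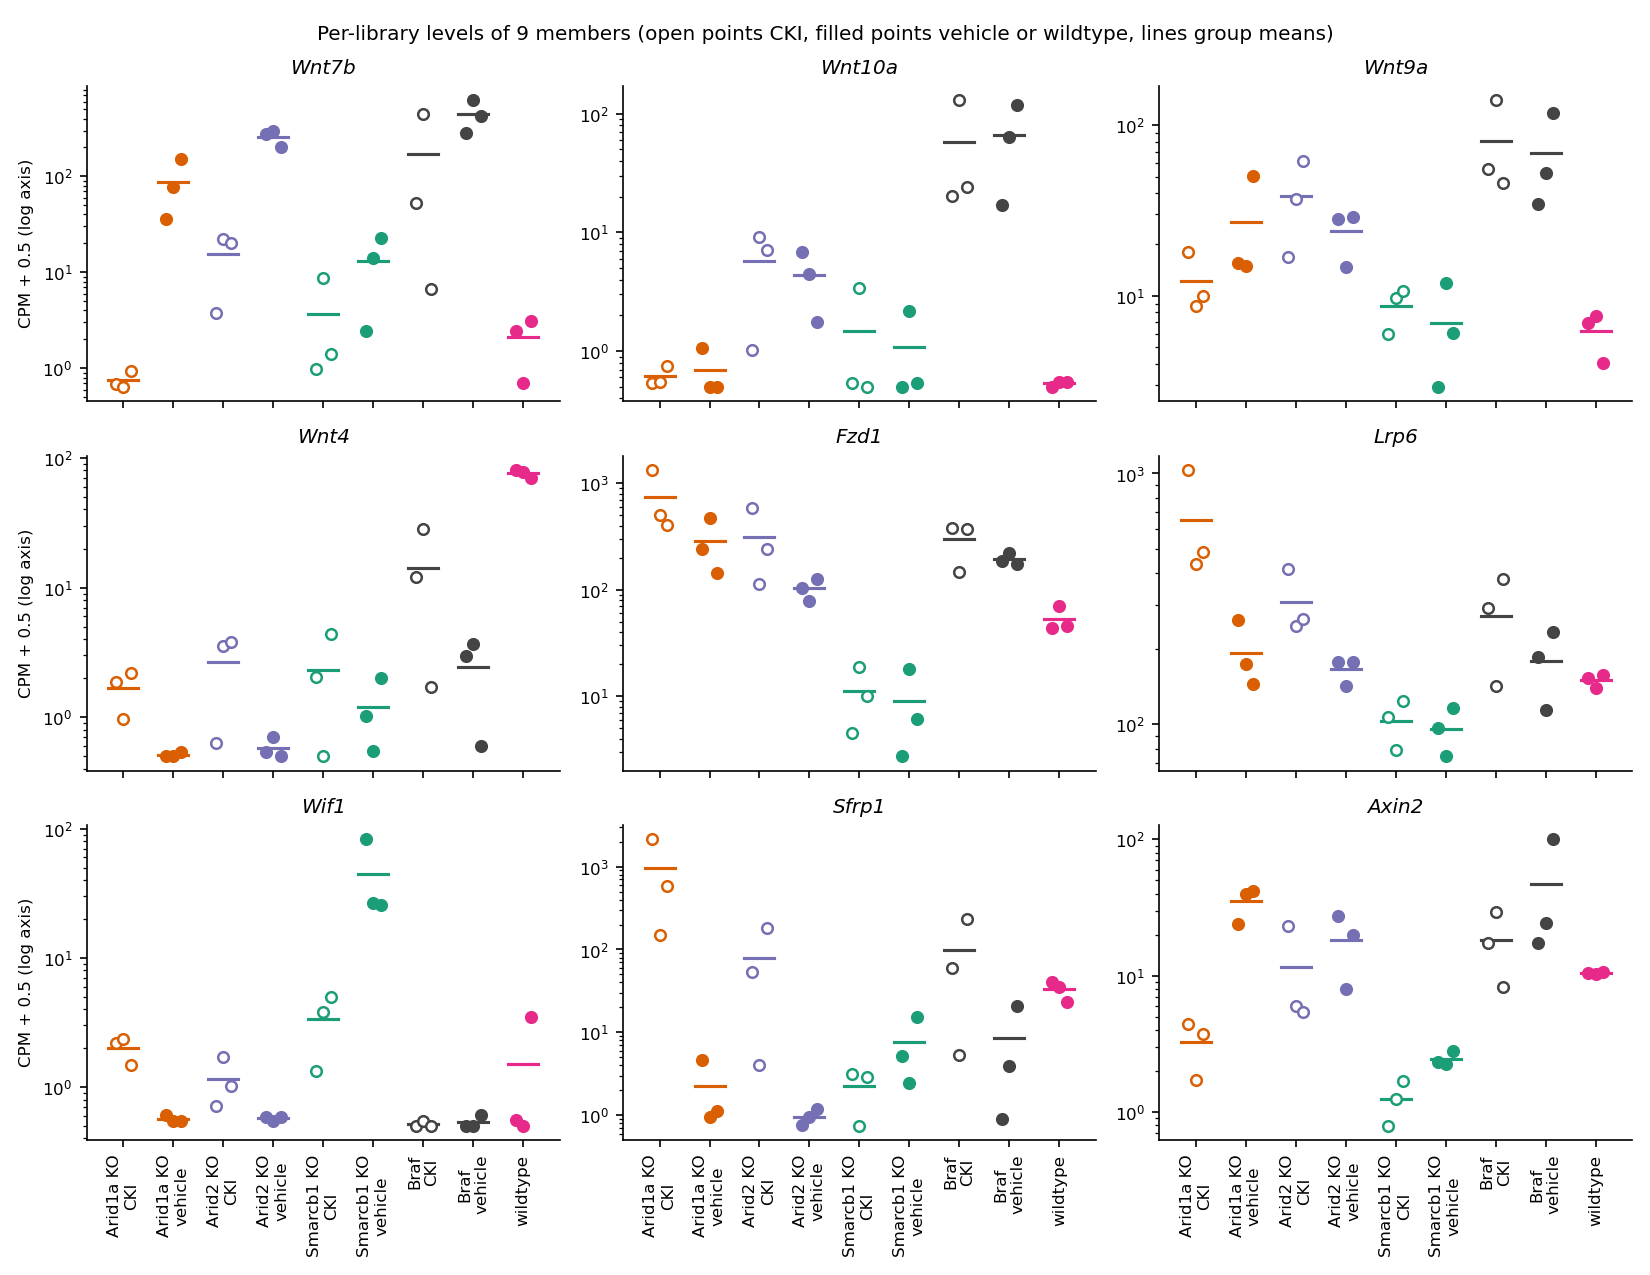
Level of 9 members in every library, as CPM + 0.5 on a log axis, with the groups along the x axis. Each point is a library, open for CKI and filled for vehicle or wildtype, and short lines are group means. Wif1 is highest in the 3 Smarcb1 KO vehicle libraries, and Wnt7b is lower under CKI than in vehicle in every genotype's mean.

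Treatment with CKI for 8 days lowered Wnt7b and Axin2 and raised the co-receptor Lrp6, the receptor Fzd2, the antagonists Sfrp1 and Dkk3 and the ligand Wnt4, averaged over the 4 tumor genotypes. Of 32 tested members, 7 rose and 2 fell in the mean of the 4 genotypes, where 27.2% of all genes tested were called. The share of members called was thus close to that of all genes. With each line paired with itself, 12 rose and 4 fell, where 42.9% of all genes tested were called. The members past the threshold only with pairing were Fzd1, Fzd6, Fzd7, Sfrp4 and Wnt6, which rose, and Dkk2 and Fzd9, which fell. Of these, the paired log2 change was 1.57 ± 0.44, adjusted p = 0.0156 for Sfrp4, -1.40 ± 0.33, adjusted p = 0.00795 for Dkk2 and -1.03 ± 0.34, adjusted p = 0.0302 for Fzd9. The median log2 change was 0.64 for the members and 0.03 for all genes tested. Marker levels of several cell types also differed between the arms. In Arid1a KO lines the 10 epithelial markers summed to 19.9, 13.4 and 9.70 CPM with CKI, with 3, 2 and 3 genes over 1 CPM, and to 337, 330.2 and 317 CPM with vehicle. In Braf lines they summed to 2009, 8767 and 218 CPM with CKI and 5552, 7488 and 1352 CPM with vehicle, and in Arid2 KO lines to 211, 199 and 85.2 CPM with CKI and 923, 84.8 and 288 CPM with vehicle. In Smarcb1 KO lines the sums were 2.83, 252 and 1.49 CPM with CKI and 19.0, 258 and 0.474 CPM with vehicle. Thyroid markers (7 genes) were higher with CKI in all 12 lines, at 773, 345 and 551 CPM with CKI and 199, 85.9 and 71.4 CPM with vehicle in Arid1a KO lines. Fibroblast markers (8 genes) summed to 1441, 21.8 and 2125 CPM in Braf CKI, with 6, 3 and 6 genes over 1 CPM, and 30.8, 5.15 and 243 CPM in Braf vehicle. In Arid2 KO lines they summed to 1330.2, 811 and 581 CPM with CKI, with 6 genes over 1 CPM in each library, and 66.4, 30.5 and 20.1 CPM with vehicle, with 4, 3 and 4 genes over 1 CPM. In Arid1a KO lines they summed to 2503, 2090.3 and 4642 CPM with CKI and 3456, 1959 and 901 CPM with vehicle, and in Smarcb1 KO lines to 8.28, 117 and 112 CPM with CKI and 4.23, 163 and 667 CPM with vehicle. The part of these markers' cells in the changes was not tested.

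Wnt7b was lower under CKI in all 12 lines. It had 51.6, 449 and 6.26 CPM in Braf CKI and 280.1, 618 and 423 CPM in Braf vehicle. Line B48051 kept most of its Wnt7b, while B52482 kept little. In Arid1a KO lines Wnt7b had 0.189, 0.139 and 0.426 CPM with CKI and 35.2, 77.0 and 149 CPM with vehicle, and in Arid2 KO lines 3.29, 21.7 and 19.8 CPM with CKI and 275, 297 and 200.2 CPM with vehicle. In Smarcb1 KO lines it had 0.492, 8.23 and 0.891 CPM with CKI and 1.95, 13.7 and 22.1 CPM with vehicle. The mean log2 change of Wnt7b was -3.94 ± 0.65, adjusted p = 0.000505, and -4.36 ± 0.55, adjusted p = 0.000271 with lines paired. By genotype it was -8.39 ± 1.61, adjusted p = 0.00403 in Arid1a KO lines. It was -4.10 ± 1.27, adjusted p = 0.163 in Arid2 KO lines, and -4.40 ± 1.01, adjusted p = 0.0329 with lines paired. In Arid1a KO lines the call was lost without line BA49112 (adjusted p = 0.0552).

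Axin2 fell under CKI in 10 of 12 lines. It had 3.93, 1.21 and 3.19 CPM in Arid1a KO CKI and 23.5, 39.2 and 41.0 CPM in Arid1a KO vehicle. Those groups did not overlap, whereas in Braf lines only B52482 was lower, with 16.9, 28.9 and 7.71 CPM in Braf CKI and 16.8, 23.7 and 99.6 CPM in Braf vehicle. The mean log2 change of Axin2 was -1.82 ± 0.38, adjusted p = 0.00261, and that in Arid1a KO lines -3.62 ± 0.79, adjusted p = 0.00806, a call lost without BA47473 or BA49112 (adjusted p of 0.0816 to 0.0851).

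Lrp6 rose under CKI in all 12 lines, although its groups overlapped across genotypes. It had 1034, 436 and 488 CPM in Arid1a KO CKI and 259, 174 and 145 CPM in Arid1a KO vehicle, and 106, 78.5 and 124 CPM in Smarcb1 KO CKI and 96.0, 74.1 and 116 CPM in Smarcb1 KO vehicle. The rise was large in Arid1a KO lines and slight in Smarcb1 KO lines. The mean log2 change of Lrp6 was 0.85 ± 0.19, adjusted p = 0.00393, and that in Arid1a KO lines 1.77 ± 0.39, adjusted p = 0.00805, which was lost without BA45198 or BA49112 (adjusted p of 0.0525 to 0.0683). Fzd2 rose in 11 of 12 lines (0.85 ± 0.17, adjusted p = 0.00196). Fzd3, a receptor of axon guidance, rose in 11 of 12 lines and passed narrowly (0.83 ± 0.30, adjusted p = 0.0499), a call lost without B47275, B52482, BA45198, BA47473, BA49112, AB51189, AB55694, BS53736 or BS53965 (adjusted p of 0.0529 to 0.133). Fzd1, Fzd6 and Fzd7 passed with lines paired and not without: the values were 0.99 ± 0.36, adjusted p = 0.051 unpaired and 0.93 ± 0.25, adjusted p = 0.0136 paired for Fzd1. They were 0.66 ± 0.35, adjusted p = 0.165 unpaired and 0.65 ± 0.10, adjusted p = 0.000954 paired for Fzd6. For Fzd7 they were 0.48 ± 0.27, adjusted p = 0.206 unpaired and 0.52 ± 0.16, adjusted p = 0.021 paired. Lrp5 was higher in 3 lines and lower in 9 and was not called (-0.01 ± 0.27, adjusted p = 1).

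Of the antagonists, Sfrp1 rose in every line of the Braf, Arid1a KO and Arid2 KO genotypes and fell in every Smarcb1 KO line. It had 2127, 149 and 589.6 CPM in Arid1a KO CKI and 4.18, 0.449 and 0.64 CPM in Arid1a KO vehicle. In Arid2 KO lines it had 53.5, 3.57 and 179.9 CPM with CKI and 0.264, 0.459 and 0.684 CPM with vehicle, and in Braf lines 58.8, 4.79 and 234 CPM with CKI and 0.415, 3.45 and 20.3 CPM with vehicle. In Smarcb1 KO lines it had 2.66, 0.247 and 2.38 CPM with CKI and 4.75, 1.94 and 14.7 CPM with vehicle. The mean log2 change of Sfrp1 was 4.52 ± 0.83, adjusted p = 0.00107, and 9.11 ± 1.99, adjusted p = 0.00785 in Arid1a KO lines, which was lost without BA47473 or BA49112 (adjusted p of 0.0555 to 0.0771). In Arid2 KO lines it passed with lines paired (6.61 ± 1.34, adjusted p = 0.0215) and not without (7.39 ± 1.90, adjusted p = 0.103).

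Dkk3 rose in 10 of 12 lines. One of them was BS53736, and the Smarcb1 KO lines together held only 3 Dkk3 counts under CKI and 2 in vehicle. It had 2.94, 13.9 and 53.7 CPM in Arid2 KO CKI and 0.264, 0.25 and 0.729 CPM in Arid2 KO vehicle, with no overlap (5.82 ± 0.93, adjusted p = 0.0209). That was the 1 member called in Arid2 KO lines, where 0.141% of all genes tested were called, and it was lost without AB51189, AB52980 or AB55694 (adjusted p of 0.112 to 0.129). With lines paired, Dkk3, Fzd2, Fzd6, Lrp6, Sfrp1 and Wnt4 rose and Wnt7b fell in Arid2 KO lines, 6 and 1 members, where 6.27% of all genes tested were called. The paired log2 change there was 1.42 ± 0.34, adjusted p = 0.0393 for Fzd2, 0.86 ± 0.20, adjusted p = 0.0334 for Fzd6, 0.87 ± 0.16, adjusted p = 0.0159 for Lrp6 and 4.46 ± 0.86, adjusted p = 0.0189 for Wnt4. For Dkk3 it was 5.39 ± 0.58, adjusted p = 0.00377. The mean log2 change of Dkk3 over genotypes was 2.72 ± 0.58, adjusted p = 0.00301. Without Smarcb1 KO line BS53736 the 2 remaining Smarcb1 KO libraries under CKI held no Dkk3 count, and the call was lost (adjusted p = 0.9999). Wif1 went in opposite directions by genotype. It had 1.70, 1.85 and 0.979 CPM in Arid1a KO CKI and 0.103, 0.0449 and 0.0427 CPM in Arid1a KO vehicle (4.49 ± 0.96, adjusted p = 0.00676), and 0.82, 3.29 and 4.46 CPM in Smarcb1 KO CKI and 82.2, 26.1 and 25.1 CPM in Smarcb1 KO vehicle (-3.99 ± 0.85, adjusted p = 0.105). In both genotypes the groups did not overlap, but the Smarcb1 KO difference did not pass, nor did it with lines paired (adjusted p = 0.0647). The call in Arid1a KO lines was lost without BA47473 or BA49112 (adjusted p of 0.0674 to 0.0781). Sfrp4 had 58.2, 15.95 and 158 CPM in Arid1a KO CKI and 0.361, 0.0449 and 0.256 CPM in Arid1a KO vehicle, and passed with lines paired (8.34 ± 0.87, adjusted p = 0.000369) and not without (8.45 ± 2.78, adjusted p = 0.0505). Dkk2 fell in every Arid1a KO line and was higher in every Braf line: with lines paired its log2 change was -1.48 ± 0.42, adjusted p = 0.0257 in Arid1a KO lines and 2.23 ± 0.57, adjusted p = 0.075 in Braf lines. Sfrp2 averaged 3.002 ± 4.98 CPM in Braf CKI and 0.463 ± 0.361 CPM in Braf vehicle and was not called (1.60 ± 0.89, adjusted p = 0.191 in the mean of genotypes).

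Of the ligands that rose, Wnt4 did so in 11 of 12 lines. It had 11.5, 27.9 and 1.20 CPM in Braf CKI and 2.49, 3.19 and 0.103 CPM in Braf vehicle, still below the 69.6 to 80.3 CPM of wildtype. In Arid1a KO lines it had 1.36, 0.464 and 1.70 CPM with CKI and 0, 0 and 0.0427 CPM with vehicle, from 1 count in all. There it passed with lines paired (adjusted p = 0.00247) and not without (adjusted p = 0.059), at 78.3-fold higher with a counting interval of 13.7 to 3127. The mean log2 change of Wnt4 was 3.62 ± 0.85, adjusted p = 0.00509. Wnt11, a ligand of cell movements in the embryo, rose in 10 of 12 lines (2.02 ± 0.66, adjusted p = 0.0306), a call lost without B47275, B52482, BA45198, BA47473, BA49112, AB51189, AB52980, AB55694 or BS53958 (adjusted p of 0.0546 to 0.183). In BS53736 the rise of Wnt11 was a log2 of only 0.11, with 0.5 CPM added to each level. Wnt6 passed with lines paired (1.90 ± 0.48, adjusted p = 0.00949) and not without (1.83 ± 0.69, adjusted p = 0.0568). Wnt5b was higher with CKI in every Braf and Arid2 KO line but was not called in the mean of genotypes (adjusted p = 0.991). Wnt9a, Wnt10a, Wnt7a, Wnt10b and Wnt5a were each higher in some lines and lower in others, and none was called. Rspo2 rose in Arid1a KO lines, at 0.567, 4.27 and 2.26 CPM with CKI and 0, 0.224 and 0.0427 CPM with vehicle (4.64 ± 1.38, adjusted p = 0.034), a call lost without BA45198, BA47473 or BA49112 (adjusted p of 0.108 to 0.207).

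**Figure D5:**
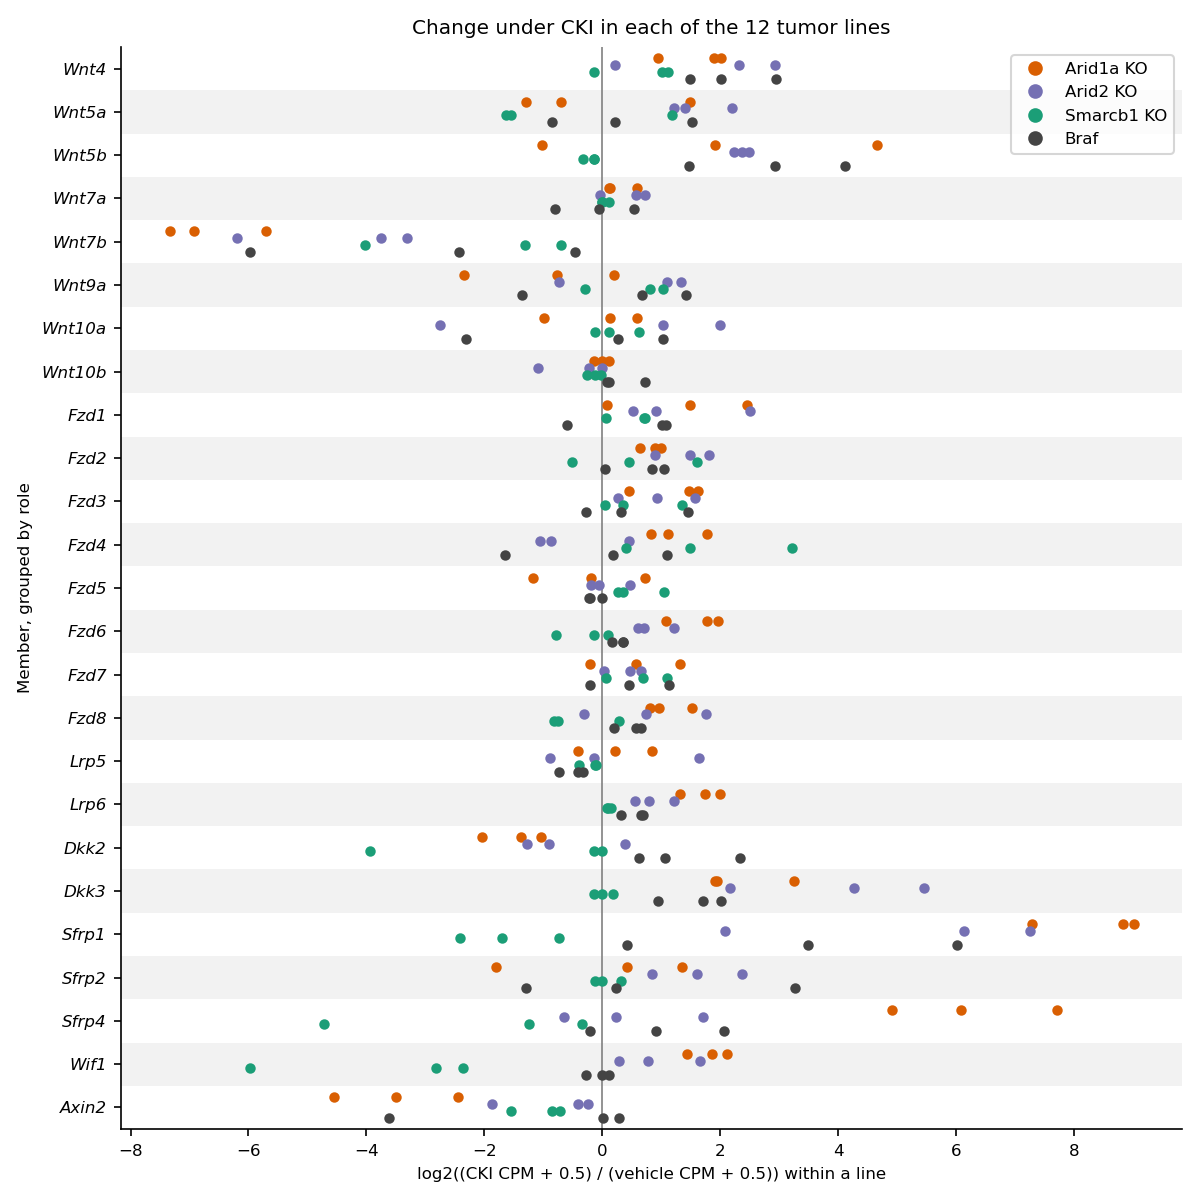
Change under CKI within each of the 12 lines (x axis, log2 of the CKI over the vehicle level, each with 0.5 CPM added) for 25 members whose mean reached 10 CPM in at least 1 group and that were tested in the tumor lines. Each point is a line, colored by genotype. All 12 points of Wnt7b lie left of 0 and all 12 of Lrp6 right of 0, and the Smarcb1 KO points of Sfrp1 lie left of 0 while the other 9 lie right of it.

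By genotype, Arid1a KO lines had the most called members under CKI, 4 higher and 2 lower, where 13.9% of all genes tested were called. The member median was 1.002 there, against 0.02 for all genes tested, and 12 rose and 4 fell with lines paired, where 32.3% of all genes tested were called. The count of called members was 4 without BA45198, 2 without BA47473 and 0 without BA49112. Fzd8 and Fzd9 were among those past the threshold only with pairing in Arid1a KO lines, at 1.13 ± 0.35, adjusted p = 0.0312 for Fzd8 and -1.84 ± 0.61, adjusted p = 0.0409 for Fzd9. The others were Dkk2, Sfrp4, Wnt4, Dkk3 (2.43 ± 0.44, adjusted p = 0.00372), Fzd3 (1.35 ± 0.43, adjusted p = 0.0359), Fzd6 (1.64 ± 0.20, adjusted p = 0.00064), Wnt11 (3.51 ± 0.67, adjusted p = 0.00387) and Wnt6. Wnt6, with 2 counts in Arid1a KO vehicle, had a paired adjusted p of 0.0422. Braf lines had 0 called members by edgeR, where 0% of all genes tested were called. At an unadjusted p under 0.05 there were 2 members, DESeq2 called 0, and 1 rose with lines paired, Wnt4 (2.83 ± 0.64, adjusted p = 0.0475), where 2.48% of all genes tested were called. Smarcb1 KO lines had 0 called members by edgeR, where 0.032% of all genes tested were called. There, 2 members had an unadjusted p under 0.05, DESeq2 called 2, and 1 fell with lines paired, Dkk2 (-5.27 ± 0.96, adjusted p = 0.0431), where 1.06% of all genes tested were called. Dkk2 had 0.287, 0 and 0 CPM in Smarcb1 KO CKI and 11.5, 0.0485 and 0 CPM in Smarcb1 KO vehicle, so line BS53736 alone carries that value. Member medians were 0.54 in Braf lines, 0.82 in Arid2 KO lines and -0.002 in Smarcb1 KO lines, against 0.02 in Braf lines, 0.03 in Arid2 KO lines and 0 in Smarcb1 KO lines over all genes tested. With Wnt5b, which held no count under CKI, set to the bound that 3 counts allow, the Smarcb1 KO median was 0.05.

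The difference in CKI response between each KO genotype and Braf lines was tested directly. No member was called by edgeR for Arid1a KO minus Braf, Arid2 KO minus Braf or Smarcb1 KO minus Braf, and in each of the 3 comparisons 0% of all genes tested were called. At an unadjusted p under 0.05 there were 6 members for Arid1a KO, 3 for Arid2 KO and 2 for Smarcb1 KO. The 0% shares above hold for edgeR's adjusted p and not for that threshold. DESeq2 called 1 for Arid1a KO and 0 for each of the other two, and the fit with lines paired called 0 in all 3, where the shares of all genes tested were 0.147% for Arid1a KO, 0% for Arid2 KO and 0.032% for Smarcb1 KO. The difference for Sfrp1 was -5.69 ± 2.19, adjusted p = 1 for Smarcb1 KO minus Braf and 5.46 ± 2.13, adjusted p = 0.852 for Arid1a KO minus Braf. The sizes and directions given by genotype are therefore not shown to differ from those in Braf lines.

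The wider pathway was followed in 43 further genes of Wnt secretion, reception, transduction and response. Against wildtype, 15 of 40 tested were higher and 6 lower in Braf vehicle, a share of 52.5% called that is near the 46.5% of all genes tested. The 4 with the smallest adjusted p were higher: Ccnd1, a cell cycle gene (6.17 ± 0.68, adjusted p = 1.73e-06), Ctnnb1, which encodes beta-catenin (1.47 ± 0.17, adjusted p = 2.13e-06), Gsk3a, a kinase of the beta-catenin destruction complex (0.72 ± 0.11, adjusted p = 2.9e-05), and Bcl9l, a co-activator of beta-catenin (1.19 ± 0.19, adjusted p = 5.35e-05). These calls were kept when any 1 line was left out. In Smarcb1 KO vehicle, 2 of 39 tested were higher and 11 lower than in Braf vehicle, a share of 33.3% called against 18.1% of all genes tested, led by Bcl9l (-1.41 ± 0.19, adjusted p = 0.000213), Rnf43 (-5.49 ± 0.88, adjusted p = 0.000766), Ctnnb1 (-1.01 ± 0.17, adjusted p = 0.00131) and the nuclear factor Tcf7 (-3.80 ± 0.66, adjusted p = 0.00141). Rnf43, the ligase that clears Frizzled receptors and is itself a pathway target, had 0.332, 1.02 and 0.258 CPM in Smarcb1 KO vehicle and 10.6, 50.3 and 11.9 CPM in Braf vehicle. Every Smarcb1 KO line was below every Braf line. Under CKI, 4 were higher and 11 lower in Smarcb1 KO lines, a share of 38.5% called against 23.1% of all genes tested, led by Bcl9l (-1.14 ± 0.19, adjusted p = 0.00098), Rnf43 (-5.31 ± 0.90, adjusted p = 0.00108) and the R-spondin receptors Lgr5 (-9.30 ± 1.86, adjusted p = 0.00311) and Lgr4 (-2.83 ± 0.60, adjusted p = 0.00443). The calls of the genes named for Smarcb1 KO lines were likewise kept when any 1 line was left out.

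Lgr5, an R-spondin receptor that marks stem cells of several epithelia, was the 1 pathway gene called in Arid1a KO vehicle, a share of 2.56% against 3.63% of all genes tested. It had 1.39, 0 and 0.128 CPM in Arid1a KO vehicle and 53.1, 5.67 and 6.96 CPM in Braf vehicle (-5.45 ± 1.45, adjusted p = 0.0445), a call lost without B47275, B48051, BA45198, BA47473 or BA49112 (adjusted p of 0.0517 to 0.19). With CKI the same Arid1a KO lines had 77.5, 78.3 and 108 CPM, against 1.39, 0 and 0.128 CPM with vehicle (7.47 ± 1.57, adjusted p = 0.00647). The 2 groups were far apart in every line, and the call was lost without BA47473 or BA49112 (adjusted p of 0.0549 to 0.0791). In Arid2 KO lines no pathway gene was called by edgeR in vehicle, with 8 at an unadjusted p under 0.05, or under CKI, with 6, and in Arid1a KO lines none was called under CKI, with 9. In the mean of 4 genotypes, 10 pathway genes rose and 4 fell under CKI, a share of 35.9% called against 27.2% of all genes tested. With lines paired 12 rose and 10 fell, where 42.9% of all genes tested were called. The unpaired calls were led by Bcl9l (0.61 ± 0.09, adjusted p = 0.000329), Ccnd1 (-1.93 ± 0.30, adjusted p = 0.000329), Lgr4 (1.82 ± 0.29, adjusted p = 0.000392) and the ligase Znrf3 (-0.77 ± 0.13, adjusted p = 0.000675). Lgr4 had 100.1, 119 and 194 CPM in Braf CKI and 26.1, 19.6 and 32.6 CPM in Braf vehicle, without overlap. In Braf, Arid2 KO and Smarcb1 KO lines taken singly no pathway gene was called by edgeR for CKI over vehicle without pairing. At an unadjusted p under 0.05 there were 8 in Braf, 11 in Arid2 KO and 4 in Smarcb1 KO lines. With lines paired 4 rose in Braf lines, where 2.48% of all genes tested were called. In Arid2 KO lines 6 rose and 3 fell with lines paired, where the share was 6.27%. In Smarcb1 KO lines 1 rose with lines paired, where the share was 1.06%. In Arid1a KO lines 6 rose and 3 fell, a share of 23.1% called against 13.9% of all genes tested. With lines paired 10 rose and 8 fell there, where 32.3% of all genes tested were called. Among the unpaired calls were Tcf7 (-3.31 ± 0.64, adjusted p = 0.00442), Bcl9l (1.07 ± 0.19, adjusted p = 0.0029) and Znrf3 (-1.18 ± 0.26, adjusted p = 0.00902). The call of Tcf7 was lost without line BA49112 (adjusted p = 0.0629), that of Bcl9l without line BA49112 (adjusted p = 0.0514) and that of Znrf3 without BA47473 or BA49112 (adjusted p of 0.0935 to 0.108). Pathway genes, like the members, were chosen by their known role, but with earlier results of these data known.

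Several members varied widely between lines of 1 genotype. Wnt5a had 35.4, 0.5 and 6.43 CPM in Arid2 KO vehicle and 69.3, 1.21 and 58.3 CPM in Smarcb1 KO vehicle, low in lines AB52980 and BS53958, and it was called in no comparison by edgeR. Wnt5b had 19.9, 6.24 and 0.256 CPM in Arid1a KO vehicle and 0.132, 0.75 and 23.3 CPM in Arid2 KO vehicle. Wnt7a reached 123 CPM in line B48051 with CKI and stayed at or below 0.361 CPM in line B52482. Among Braf lines, B52482 also had fewer epithelial genes over 1 CPM, 4 of 10 in each arm, against 9 in B47275 and 10 in B48051. The members Fzd9, Fzd10 and Wnt2b had at most 5.97 CPM in any library and were called in no comparison without pairing.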

How the data were processed

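The authors deposited raw counts per gene symbol in 1 table for 27 libraries. STAR 2.4, HTSeq 0.6.1, DESeq2 and the mouse build mm9 appear in the submitters' processing notes, without their roles. The sources used here name neither annotation nor strand setting, so reads of overlapping or antisense genes cannot be told apart. Every column was matched to a sample by its title, with 0 columns unmatched.

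Counts were tested with edgeR 4.0.16 in R 4.3.3 (limma 3.58.1), with TMM scaling, filterByExpr by group and quasi-likelihood F tests adjusted over all genes by Benjamini-Hochberg. The 24 tumor libraries were fitted together by group (15634 genes, 16 residual degrees of freedom). For Braf vehicle against wildtype the fit held all 27 libraries (16821 genes). Standard errors are approximate, derived from the fold change and F. The same 12 lines were sequenced in both arms, and the deviations of a line's pair of libraries from their group means correlated at 0.259 to 0.773 over genes. A second fit of CKI against vehicle therefore kept the line as a block (8 residual degrees of freedom). Its values are printed where they change a member's call.

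Alternatives were RLE size factors, no filter and a filter of 1 CPM in 6 libraries, DESeq2 1.42.0, the compared groups alone, each line left out, and no BS53958 and BS53965. The unpaired edgeR fit was tested on simulated counts for 1 comparison, Smarcb1 KO over Braf in vehicle, with the same spread for every gene. The fit with lines paired was not part of that test. Members with a call in any comparison or a group mean of at least 10 CPM are named, and up to 4 pathway genes per comparison with the smallest adjusted p. The members and lists were chosen with earlier results of these data known. A group at 0 counts was allowed 3 counts for a bound. Promoter windows are from RefSeq on GRCm38.p6, not the build of the counts, and were used for their sequence alone. Of the thyroid markers, 1 is not reported here and was left out of the summed level.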

Additional observations from a re-analysis of the deposited data

Results flagged for a closer look

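The response to CKI was compared between every pair of tumor genotypes, as a difference of log2 changes with the same 24 libraries. These comparisons share libraries. Between Arid1a KO and Smarcb1 KO lines the difference was past the threshold of edgeR's test for Wif1, at 8.48 (adjusted p = 0.0242, and 0.0167 with lines paired). Wif1 was higher under CKI in all 3 Arid1a KO lines and lower in all 3 Smarcb1 KO lines. Of all genes tested, 3 passed in this comparison without pairing, and 562, or 3.59%, with lines paired.

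A further 4 members passed between Arid1a KO and Smarcb1 KO lines only with lines paired. The difference of Sfrp4 was 13.12, with adjusted p = 0.00391 paired and 0.118 unpaired, and on the Smarcb1 KO side it rested on line BS53736. For Sfrp1 it was 11.15, with adjusted p = 0.0134 paired and 0.0769 unpaired. Fzd6 differed by 1.71, with adjusted p = 0.0162 paired and 0.527 unpaired, and Lrp6 by 1.66, with adjusted p = 0.00962 paired and 0.188 unpaired.

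Every line of Arid1a KO also moved opposite to every line of Smarcb1 KO for Sfrp1 and Sfrp4. For Sfrp4 the log2 changes in Smarcb1 KO lines, with 0.5 CPM added to each level, were -4.71, -0.34 and -1.25. Only BS53736 had more than 1 CPM of Sfrp4 in vehicle, so its fall in Smarcb1 KO lines rests on that line. In 4 further cases the change had one sign in every line of 1 genotype and the opposite sign in every line of another. Opposite signs were looked for among the members only, so none of these cases can be set against a share of all genes. In none of them did the difference pass in edgeR's test, paired or unpaired. Dkk2 was higher under CKI in all Braf lines and lower in all Arid1a KO lines, and Braf minus Arid1a KO was 3.74 (adjusted p = 1, and 0.0751 with lines paired). Fzd5 had log2 changes under CKI, with 0.5 CPM added to each level, of -0.21, -0.23 and -0.00035 in Braf lines. The last, B52482, was in effect unchanged. In Smarcb1 KO lines they were 0.28, 0.35 and 1.05, and Braf minus Smarcb1 KO was -0.79 (adjusted p = 1, and 0.656 paired). Sfrp1 was higher under CKI in all Braf and Arid2 KO lines and lower in all Smarcb1 KO lines. The Sfrp1 difference was 5.69 for Braf minus Smarcb1 KO (adjusted p = 1, and 0.383 paired). It was 9.44 for Arid2 KO minus Smarcb1 KO (adjusted p = 0.486, and 0.140 paired). The groups hold 3 libraries each, too few for a test of single libraries that stand apart.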

How the results depend on the processing

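Counts of called members stayed within 1.5 times under RLE size factors, without a filter and with the stricter filter. RLE moved the median log2 change of all genes from Braf vehicle over wildtype to -0.145, against 0.0158 with TMM. DESeq2 called 5 members against 1 for Arid1a KO over Braf in vehicle, 2 against 0 for Arid2 KO in vehicle, 8 against 2 for Arid1a KO under CKI and 2 against 0 for Arid2 KO under CKI. For CKI over vehicle it called 11 against 6 in Arid1a KO, 5 against 1 in Arid2 KO and 2 against 0 in Smarcb1 KO lines, and 1 against 0 for the response of Arid1a KO minus Braf. With the compared groups alone, 0 against 1 and 8 against 13 members were called for Arid1a KO and Smarcb1 KO in vehicle, 0 against 2 and 5 against 15 under CKI, and 15 against 6 and 0 against 1 for CKI over vehicle in Arid1a KO and Arid2 KO lines. With the replicate block, in which lines are paired, CKI over vehicle called 16 against 9 in the mean of genotypes, 1 against 0 in Braf, 16 against 6 in Arid1a KO, 7 against 1 in Arid2 KO and 1 against 0 in Smarcb1 KO lines, and left the 3 counts of response differences from Braf at 0. Without BS53958 and BS53965, which leaves 1 Smarcb1 KO line assumed to vary like the other groups, Smarcb1 KO over Braf had 7 called against 13 in vehicle and 6 against 15 under CKI, and the block without them, chosen after seeing the data, called 14 against 9 in the mean. With each line left out, counts were 0 to 3 for Arid1a KO in vehicle, 0 to 6 for Arid1a KO under CKI, 0 to 1 for Arid2 KO in vehicle, 0 to 4 for CKI in Arid1a KO and 0 for CKI in Arid2 KO lines. Among called members, single lines left out ended the call in 102 cases and kept it in 295. The sign turned in 2 cases: Sfrp4 in Smarcb1 KO vehicle without BS53736 (-0.65, adjusted p = 0.794) and Wif1 against wildtype without the third wildtype library (0.28). Over the single lines left out, the log2 change of Sfrp4 ran up to 9.72 and that of Wif1 down to -7.41. The cause of these changes was not tested beyond the smaller number of libraries. With 3 lines a group and 2884130 counts in the shallowest library, changes of members under about 1 CPM were not detectable there.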
